A study of Mus musculus with 2 samples.

Results

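The 10 genes described here encode RNA-binding proteins that set the splicing and the stability of neuronal transcripts. They were chosen by name, as the rows of the count files with the symbols Ptbp1, Ptbp2, Srrm4, Rbfox1, Rbfox2, Rbfox3, Nova1, Nova2, Elavl3 and Elavl4, and all 10 were found among the 24411 genes counted. The areas were the subventricular zone (SVZ), where neural progenitors divide beside the ventricles, and the cortex, where new neurons settle, both cut by laser capture microdissection from fresh frozen mouse brain sections at embryonic day 16.5. Each area gave 1 RNA-seq library. That of the SVZ held 51435667 gene-assigned reads and that of the cortex 22050693, and a difference between the areas has no replicate check, so no test was made. No strain, genotype or treatment is named for either area, and the number of animals behind a library is not given in the sources used here. Each ratio carries a 95% Clopper-Pearson interval of the read counts, which covers the counting error of reads alone. No molecular identifiers separate molecules from their PCR copies, so the interval does not cover the error in the number of molecules.

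As neurons form, they exchange one set of RNA-binding proteins for another. PTBP1 binds pyrimidine-rich RNA and holds back neuronal exons in progenitors and in cells outside the nervous system, whereas its paralog PTBP2 takes over in young neurons. SRRM4 promotes the inclusion of microexons, RBFOX proteins bind the RNA letters UGCAUG, NOVA proteins bind YCAY clusters, and the neuronal Hu proteins ELAVL3 (HuC) and ELAVL4 (HuD) bind U-rich stretches and stabilize or splice their targets. RBFOX3 is the NeuN antigen used to stain mature neurons.

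Short exons of equal length in the paralogs are shown here because they carry the sequence kinship of each family. The gene-level counts below add up all transcripts of a gene, with or without such an exon. The sequences were read from GENCODE M21 transcripts on GRCm38, and capitals mark the positions at which all members of the set hold the same base. In the Ptbp pair the exon has 34 nt, and 26 of these positions are the same. The annotated transcripts that skip it number 2 for Ptbp1, all of the nonsense-mediated decay class, and 3 for Ptbp2, of the decay and retained intron classes.
Ptbp1, chr10:79862014-79862047, + strand: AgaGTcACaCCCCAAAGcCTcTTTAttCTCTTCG
Ptbp2, chr3:119724612-119724645, - strand: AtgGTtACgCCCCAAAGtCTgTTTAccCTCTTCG
In the Elavl pair an exon of 39 nt is the same at 35 positions. The annotated transcripts that skip it number 0 for Elavl3 and 1 for Elavl4.
Elavl3, chr9:22024674-22024712, - strand: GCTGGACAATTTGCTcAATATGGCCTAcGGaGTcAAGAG
Elavl4, chr4:110209740-110209778, - strand: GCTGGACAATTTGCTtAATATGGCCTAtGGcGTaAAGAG
In the Rbfox genes an exon of 40 nt is the same at 30 positions in all 3 members. The annotated transcripts that skip it number 2 for Rbfox1, 4 for Rbfox2 and 0 for Rbfox3.
Rbfox1, chr16:7363865-7363904, + strand: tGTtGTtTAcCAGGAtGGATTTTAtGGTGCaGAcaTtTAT
Rbfox2, chr15:77094451-77094490, - strand: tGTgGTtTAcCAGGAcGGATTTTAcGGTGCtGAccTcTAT
Rbfox3, chr11:118496351-118496390, - strand: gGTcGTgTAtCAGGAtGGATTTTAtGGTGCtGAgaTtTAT

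Over the whole coding sequence of the longest transcripts, paralogs were 70.5% (Nova1 and Nova2) to 78.4% (Elavl3 and Elavl4) identical in aligned bases. The longest run of bases shared without a mismatch was 29 nt, in the Elavl pair and in Rbfox1 and Rbfox2. Reads were 75 nt long before adapters were trimmed. No stretch of 75 nt was common to the annotated transcripts of any 2 members of a family (0 shared in each of the 6 pairs). Full-length reads without sequencing errors that lie within these transcripts thus distinguish the paralogs. Reads shortened by trimming were not checked. Genes outside the families shared such stretches with Nova1 (2.72% of its stretches), Elavl3 (2.61%) and Ptbp1 (1.73%), and with no other member. For Nova1 and Elavl3 these genes (Gm33869 and Gm49318) overlap the member's own exons on the same strand, and neither is among the genes counted.

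The area labels were checked against markers of the cell types. Apical progenitor markers were higher in the SVZ library for 8 of 8 genes, from 6.25-fold (Nes) to 264-fold (Pax6). Their sum was 6529 CPM (reads per 1000000 gene-assigned reads) against 130 CPM in the cortex library. Fabp7 alone gave 4973 CPM of the SVZ sum. Intermediate progenitor markers summed to 473 against 13.4 CPM and proliferation markers to 1331 against 20.9 CPM. Neuron markers were higher in the cortex library for 8 of 8 genes, but they were far from absent in the SVZ library, with 3762 CPM in sum against 9308 CPM. No marker of these lists was at 0 reads in either library. In bulk tissue, fewer cells of a type and less RNA per cell cannot be told apart. Among other cell types, interneuron markers summed to 98.6 CPM in the SVZ and 63.4 in the cortex, and vessel markers to 59.3 and 45.2. Microglia markers summed to 15.9 and 2.86, meninges markers to 1.21 and 2.45 and the choroid plexus gene Ttr to 240 and 0.726. Both erythroid markers were at 0 reads in both libraries. The counts leave out reads that map to several places or overlap several genes, and whether this removed erythroid reads was not tested. A count of 0 here thus does not show that blood cells were absent. The part of cell mixture in the differences below was not tested.

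All 10 regulators were expressed, with a mean over both libraries between 22.0 CPM (Nova1) and 547 CPM (Elavl3), and each passed the minimum of a mean of 1 CPM. A gene is called SVZ-high here when its CPM was 2-fold or more above that of the cortex, and cortex-high in the reverse case. SVZ-high were 2 of the 10, Ptbp1 and Elavl4, where 20.0% of the 12738 genes at this minimum were called. Cortex-high were 4, Rbfox1, Nova2, Elavl3 and Rbfox2, where 15.6% of all genes were called. With a threshold of 4-fold, 1 member was SVZ-high (Ptbp1), where 10.2% of all genes were called, and 1 was cortex-high (Rbfox1), where 7.01% were called. The other 4, Srrm4, Ptbp2, Rbfox3 and Nova1, lay within 2-fold. The median log2 ratio of SVZ to cortex CPM was -0.39 over the 10 genes and 0.11 over all genes, for which the quartiles were -0.56 and 0.76.

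**Figure D1:**
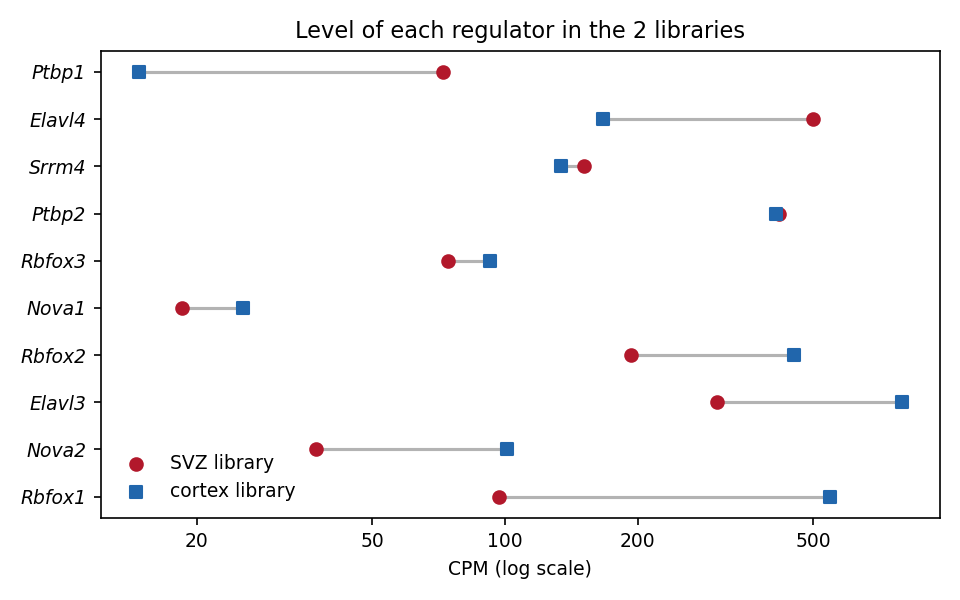
CPM of each of the 10 regulators (log axis) in the SVZ library (red circles) and the cortex library (blue squares), 1 library each, ordered by the ratio. Ptbp1 and Elavl4 are well to the right in the SVZ library, the Ptbp2 symbols nearly coincide, and Rbfox1 has the longest line on the cortex side.

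The Ptbp pair was examined first, because it is the switch with which neuronal splicing is thought to begin. Ptbp1 (chromosome 10, 79854427 to 79864771) gave 3722 reads from the SVZ against 326 from the cortex, or 72.4 and 14.8 CPM. It was 4.89-fold higher in the SVZ (interval 4.37 to 5.50), a log2 ratio of 2.29 that was exceeded by 8.84% of all genes tested. Exons of other counted genes overlap Ptbp1 on the opposite strand, and the unstranded count leaves out the reads that fall there. The antisense gene Gm17134 overlaps Ptbp1 by 437 nt and is not among the genes counted. Its reads would count as Ptbp1 where no counted gene overlaps, which was not tested. Ptbp2 (chromosome 3, 119718742 to 119784466) gave 21509 and 9048 reads (418 and 410 CPM). The log2 ratio, 0.03, could not be told from equality (interval -0.01 to 0.06). Under each of 3 other scalings it was -0.07, outside that interval, so the sign of this small ratio depends on the scaling.

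The balance of the pair, the number of Ptbp2 reads for each Ptbp1 read, does not depend on how libraries are scaled. It was 5.78 in the SVZ and 27.8 in the cortex, a 4.80-fold difference (exact conditional interval 4.28 to 5.41). Nearly all of this difference lay in the Ptbp1 counts, as the CPM of Ptbp2 hardly differed. Ptbp1 contributed 14.8% of the reads of the pair in the SVZ library (interval 14.3 to 15.2%) and 3.48% in the cortex library (3.12 to 3.87%). Ptbp2 was therefore the more abundantly read gene of the pair in both pieces, the SVZ included. In RPKM (reads per kilobase of merged annotated exon and 1000000 gene-assigned reads), the scale for levels of different genes, Ptbp2 stood at 45.6 and Ptbp1 at 15.3 in the SVZ, and at 44.7 and 3.12 in the cortex.

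Srrm4 (chromosome 5, 116439275 to 116591817), the microexon regulator, gave 7747 reads from the SVZ against 2954 from the cortex, or 151 and 134 CPM. On the log2 scale they differed by 0.17 (interval 0.11 to 0.23), which 47.4% of all genes exceeded, so Srrm4 sat near the middle of all genes. An antisense gene, Srrm4os, overlaps its exons by 68 nt. Its balance with Ptbp1, with which it acts in opposite directions on many exons, differed more, nearly all of it through the Ptbp1 counts. For each Ptbp1 read there were 2.08 Srrm4 reads in the SVZ and 9.06 in the cortex, 4.35-fold more (3.85 to 4.93).

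**Figure D2:**
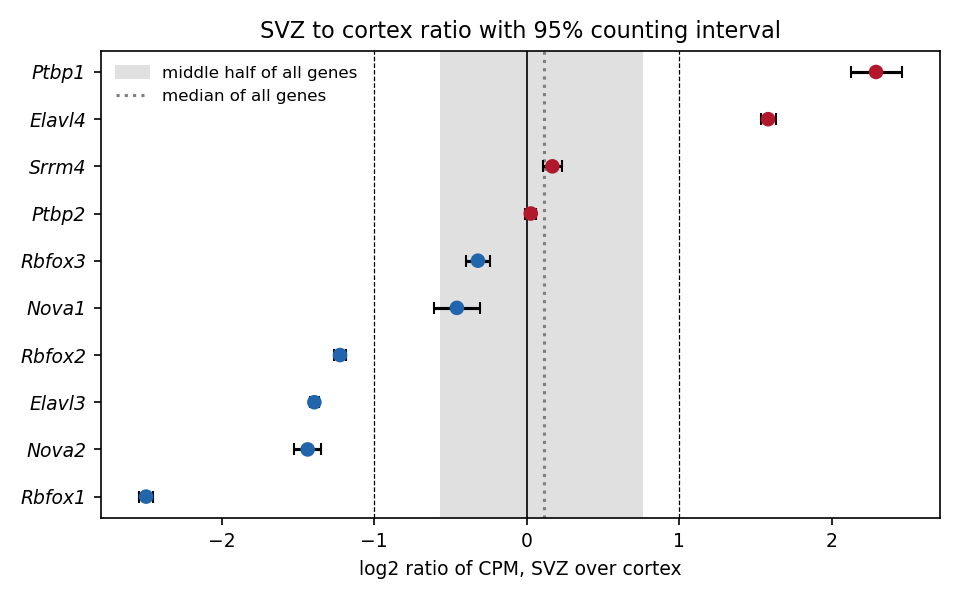
Log2 ratio of SVZ to cortex CPM for each regulator (points; red, higher in the SVZ library; blue, higher in the cortex library) with its 95% counting interval (bars), 1 library an area. The gray band spans the quartiles of all 12738 genes, -0.56 to 0.76, dashed lines mark 2-fold, and 6 of the 10 points lie past them.

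The Rbfox genes were all higher in the cortex library, but to very different degrees. Rbfox1 (chromosome 16, 5885355 to 7411526), a gene that spans 1526 kb, gave 4981 reads from the SVZ against 12037 from the cortex, or 96.8 and 546 CPM. It was 5.64-fold higher in the cortex (5.45 to 5.83), the largest difference among the 10 genes, and 4.88% of all genes had a lower ratio. Rbfox2 (chromosome 15, 77078990 to 77307004), which is also used outside the nervous system, had nearly equal raw numbers, 9939 and 9949 reads, but 193 and 451 CPM. Once the depth was taken into account, it was 2.33-fold higher in the cortex (2.27 to 2.40).

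Rbfox3 (chromosome 11, 118489762 to 118911597), the gene of the NeuN antigen, gave 3814 reads from the SVZ against 2040 from the cortex, or 74.2 and 92.5 CPM. Its difference was small, 1.25-fold (1.18 to 1.32), and the log2 ratio of -0.32 lay between the quartiles of all genes. Neuron markers in the same libraries had a median log2 ratio of -1.54, with a range of -3.51 to -0.69, and Rbfox3 thus lay nearer to 0 than each of these 8 genes. It took 20.4% of the reads of the Rbfox genes in the SVZ library (19.8 to 20.9%) and 8.49% in the cortex library (8.14 to 8.85%).

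Within the family, Rbfox1 made up 26.6% of the reads in the SVZ and 50.1% in the cortex. For each Rbfox2 read there were 0.501 Rbfox1 reads in the SVZ and 1.21 in the cortex, a 2.41-fold difference (2.31 to 2.52). The balance of Rbfox3 to Rbfox2 went the other way, 0.384 against 0.205, 1.87-fold higher in the SVZ (1.76 to 1.99). The leading member by reads was Rbfox2 in the SVZ library and Rbfox1 in the cortex library, and in RPKM Rbfox2 (23.7) and Rbfox1 (22.0) were close in the SVZ library.

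**Figure D3:**
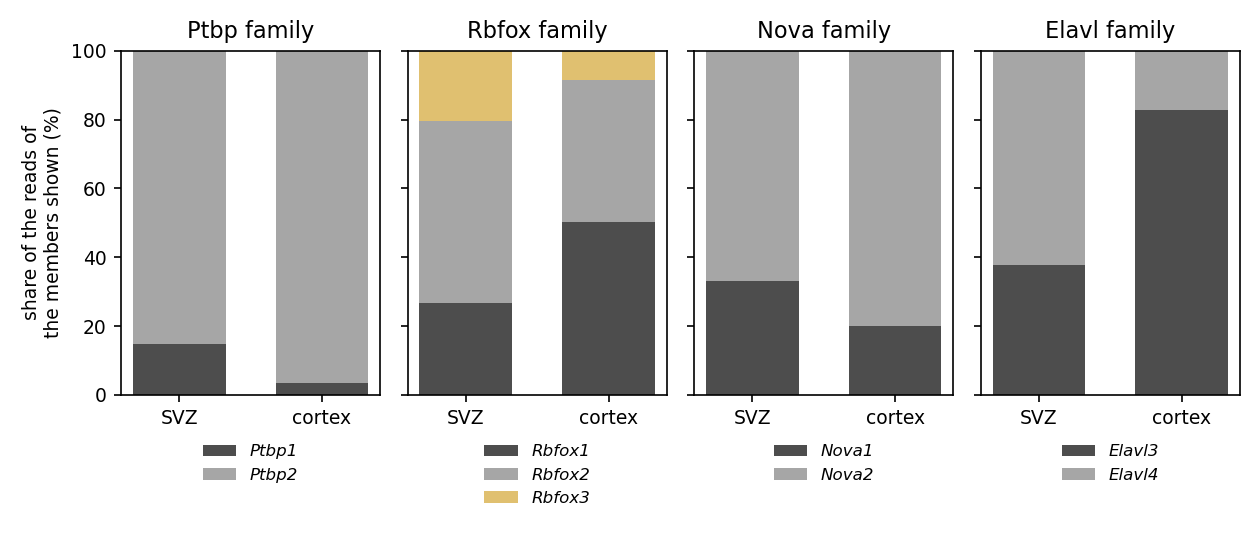
Share of the reads of each family that came from each member (stacked bars, percent, not corrected for gene length) in the SVZ and the cortex library, 1 library each. Elavl3 takes 37.7% of the pair's reads in the SVZ and 82.6% in the cortex, and Ptbp1 14.8% and 3.48%.

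The Nova genes, which encode splicing factors first known as antigens of a neurological autoimmune disease, had the lowest SVZ levels of the 10 in RPKM, while on the cortex side Ptbp1 (3.12) lay between Nova2 (12.1) and Nova1 (2.91). Nova1 (chromosome 12, 46694517 to 46818929) gave 955 reads from the SVZ against 562 from the cortex, or 18.6 and 25.5 CPM, 1.37-fold higher in the cortex (1.23 to 1.53). Nova2 (chromosome 7, 18925888 to 18965319), the paralog known as the main form in the cortex, had 1922 and 2229 reads, or 37.4 and 101 CPM, 2.71-fold higher in the cortex (2.54 to 2.88). The balance of Nova2 to Nova1 was 2.01 in the SVZ and 3.97 in the cortex, which differ 1.97-fold (1.74 to 2.23). Nova2 led the pair in both libraries. In GENCODE M21 the lincRNA gene Gm26821 overlaps the exons of Nova2 by 2652 nt on the opposite strand. It is not among the genes counted, so with strand ignored its reads there would count as Nova2. How many of the Nova2 reads this concerns was not tested.

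Elavl3 and Elavl4 differed in opposite directions. Elavl3 (chromosome 9, 22015005 to 22052023) gave 15535 reads from the SVZ against 17472 from the cortex, or 302 and 792 CPM, and was 2.62-fold higher in the cortex (2.57 to 2.68). Elavl4 (chromosome 4, 110203722 to 110351909) had 25660 and 3670 reads, or 499 and 166 CPM, and was 3.00-fold higher in the SVZ (2.90 to 3.10). Both genes are commonly used as markers of neurons, yet the log2 ratio of Elavl4, 1.58, was exceeded by 12.9% of all genes tested, whereas that of Elavl3, -1.39, had 11.1% of genes below it.

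The balance of Elavl4 to Elavl3 was 1.65 reads in the SVZ and 0.210 in the cortex. This difference, 7.86-fold (7.55 to 8.19), was the widest of the 6 pairs compared. Elavl4 gave 62.3% of the reads of the pair in the SVZ and 17.4% in the cortex. The other genes of the family, taken from a list of related regulators, were Elavl2 (HuB), read 28400 and 10258 times, at a log2 ratio of 0.25 (0.21 to 0.28), and the widely expressed Elavl1 (HuR), read 16160 and 3088 times, at 1.17 (1.11 to 1.22). Of the 4 Hu genes, Elavl3 alone had the higher CPM in the cortex library.

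**Figure D4:**
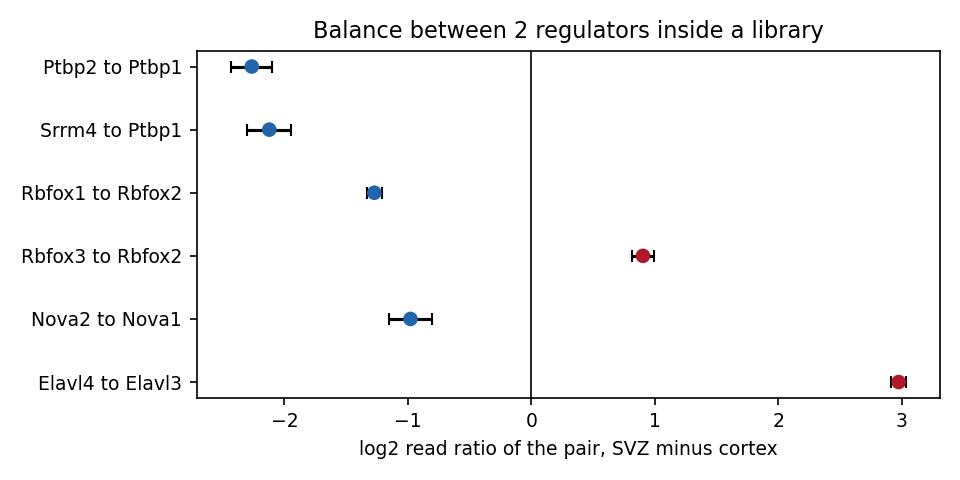
Difference between the libraries in the log2 read ratio of 6 pairs of regulators (SVZ minus cortex; points) with exact conditional 95% intervals (bars). The balances of Elavl4 to Elavl3 (2.98) and Rbfox3 to Rbfox2 (0.90) were higher in the SVZ library, and the other 4 were higher in the cortex library.

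Ordered by ratio, the regulators ran from Ptbp1 over Elavl4, Srrm4, Ptbp2, Rbfox3, Nova1, Rbfox2, Elavl3 and Nova2 to Rbfox1. Of the 9 pairs of neighbors in this order, 7 had a balance whose interval excluded equality. The neighbors Rbfox3 and Nova1 (log2 difference 0.14, interval -0.03 to 0.31) and Elavl3 and Nova2 (0.04, interval -0.05 to 0.14) did not differ beyond counting error. The intervals come from the same reads that set the order and cover counting error alone. They do not check whether the order would hold in other libraries. The order of the levels was read in RPKM. In the SVZ library Elavl4 stood highest (92.6), followed by Ptbp2 (45.6), Elavl3 (43.8), Rbfox2 (23.7), Rbfox1 (22.0), Srrm4 (17.4), Ptbp1 (15.3) and Rbfox3 (12.7), with Nova2 (4.46) and Nova1 (2.12) at the end. In the cortex library Rbfox1 (124) and Elavl3 (115) stood highest, before Rbfox2 (55.4), Ptbp2 (44.7), Elavl4 (30.9), Rbfox3 (15.9), Srrm4 (15.4), Nova2 (12.1), Ptbp1 (3.12) and Nova1 (2.91). With the length of the longest coding transcript in place of merged exons, a choice made after the data were seen, Ptbp2 passed Rbfox2 in the cortex library (109 against 65.3) and Rbfox1 passed Rbfox2 in the SVZ library (31.6 against 28.0). The SVZ order of Srrm4, Ptbp1 and Rbfox3 was turned round, to Rbfox3 (23.5), Ptbp1 (22.8) and Srrm4 (20.2).

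The position of the regulators was then set beside other splicing and RNA-binding regulators. Of 22 such genes, 21 passed the minimum, of which 9 were SVZ-high and 6 cortex-high, where 20.0% and 15.6% of all genes were called. The median log2 ratio was 0.14. Past 4-fold on the SVZ side were Raver2 (495 and 17 reads; log2 ratio 3.64, interval 2.95 to 4.43), the gene of a partner of PTBP1, the muscleblind gene Mbnl3 (1565 and 57 reads; 3.56) and Qk (102681 and 4203 reads; 3.39), which encodes the quaking protein of glia and progenitors. On the cortex side they were Khdrbs2 (977 and 4030 reads; -3.27), which encodes the neuronal protein SLM1, and Celf5 (892 and 1841 reads; -2.27). Ptbp3, the third paralog of the Ptbp family, was read 1753 and 313 times (34.1 and 14.2 CPM), a log2 ratio of 1.26 (1.09 to 1.44).

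Transcripts that the regulators are known to splice or stabilize were compared at the level of whole genes, since the files do not resolve exons. Of 20 such genes, 8 were cortex-high and 1, Rest, was SVZ-high, where 15.6% and 20.0% of all genes were called. The median log2 ratio was -0.48. All those past 4-fold had the higher CPM in the cortex. Among them were the NOVA targets Glra2 (510 and 1914 reads; log2 ratio -3.13) and Dab1 (7467 and 19971 reads; -2.64), the NMDA receptor gene Grin1 (33 and 108 reads; -2.93, interval -3.54 to -2.36), the calcium channel gene Cacna1c (201 and 590 reads; -2.78), whose exons RBFOX and PTBP proteins regulate, and Gap43 (12573 and 42409 reads; -2.98), whose mRNA is bound by ELAVL4. Other PTBP targets lay within 4-fold. Among them, Gabbr1 had a log2 ratio of -1.43, Dlg4, which encodes PSD-95, was read 266 and 126 times, with a log2 ratio of -0.14 (-0.46 to 0.17), and Flna had a log2 ratio of 0.91.

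Genes of the circuit that ties the transcriptional repressor REST and the neuronal microRNA miR-124 to Srrm4 and Ptbp1 were the last list. REST represses Srrm4 and the miR-124 genes in non-neuronal cells, SRRM4 in turn alters the splicing of Rest, and miR-124 represses Ptbp1. Rest gave 1458 reads from the SVZ against 266 from the cortex, or 28.3 and 12.1 CPM, a log2 ratio of 1.23 (1.04 to 1.43). It was 1 of 3 SVZ-high genes among the 7 (20.0% of all genes were called), with the phosphatase genes Ctdsp1 (778 and 64 reads; 2.38) and Ctdsp2 (1.57). The miR-124 host gene Mir124a-1hg was read 1568 and 1274 times, with a log2 ratio of -0.92 (-1.03 to -0.81), while the host gene Mir124-2hg, counted under the older name 2610100L16Rik, had a log2 ratio of -0.01 (-0.12 to 0.09). Reads of a host transcript do not measure the mature microRNA. No gene of this list was cortex-high (0 of 7, where 15.6% of all genes were called), but 1 was under TMM and under upper-quartile scaling. The median log2 ratio was 0.19.

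**Figure D5:**
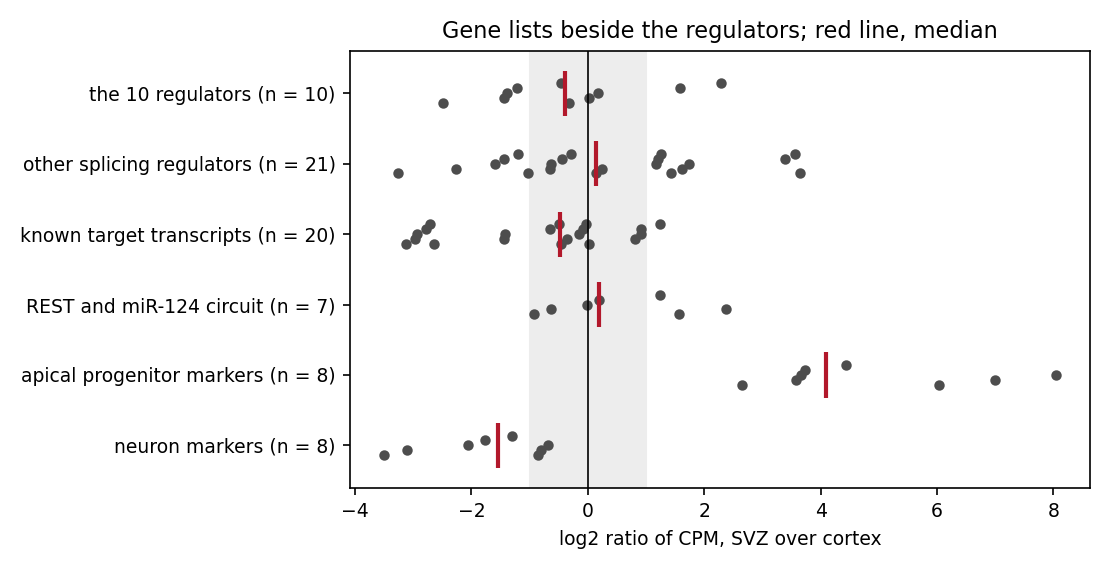
Log2 ratio of SVZ to cortex CPM for each gene (points) of the 10 regulators, 3 lists of related genes and 2 marker lists, with list medians (red lines) and the range within 2-fold (gray). The regulators spread from -2.49 to 2.29. Their median of -0.39 lay between the medians of the progenitor markers (4.09) and the neuron markers (-1.54), as did the median of all genes (0.11).

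Finally, sequence features were described that the choice of the genes had not used. The 3' untranslated regions of the longest annotated coding transcripts ran from 1439 nt (Rbfox3) to 6701 nt (Nova2), all 10 above the median of 1243 nt over 11735 genes that passed the minimum. The DNA letters TGCATG, which spell the RBFOX site on the transcript strand, were found in the 3' untranslated regions of 7 of the 10 members and of 37.7% of all genes. Per kilobase they occurred 0.429 times in the members and 0.364 times over all genes. Nova1 held the most, 6 copies, and Ptbp1, Rbfox1 and Rbfox2 held 0.

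Promoter windows of 300 bases around RefSeq transcript starts (GRCm38.p6) were found for 9 of the 10 members, in 13 windows. They were searched on both strands for the E-boxes CAGATG and CAGCTG, letters that neurogenic basic helix-loop-helix factors bind and that did not overlap each other here. CAGATG was found in 5 of the 13 windows, which belong to 3 members (Ptbp1, Elavl4 and Srrm4), and in 17.2% of 32851 windows of all genes. CAGCTG was found in 6 of the 13, of 5 members (Ptbp1, Elavl4, Elavl3, Nova1 and Rbfox1), and in 16.3% of all. The members with an E-box thus include SVZ-high genes, cortex-high genes (Elavl3 and Rbfox1) and genes within 2-fold (Srrm4 and Nova1). Whether these letters go with the direction of the difference was not tested. Members with several overlapping windows count more than once here. The letters TTCAGCACC, from the core of the REST site, were in 0 of the 13 windows and in 0.371% of all. The windows of Ptbp1 and Elavl4, the SVZ-high members, are shown with these letters in capitals. Of the 4 windows listed for Elavl4, 2 that overlap hold both, and the first of these is given. The Elavl4 window at chr4:110351862-110352161 holds neither. A match is a description of letters, and the counts do not say which start was used.
Ptbp1, chr10:79854182-79854481, + strand: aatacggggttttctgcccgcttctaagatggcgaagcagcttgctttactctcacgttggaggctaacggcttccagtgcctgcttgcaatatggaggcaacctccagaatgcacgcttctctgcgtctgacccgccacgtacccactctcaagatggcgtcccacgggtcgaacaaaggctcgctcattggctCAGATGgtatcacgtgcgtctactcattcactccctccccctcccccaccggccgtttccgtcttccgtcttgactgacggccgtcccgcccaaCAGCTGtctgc
Elavl4, chr4:110287478-110287777, - strand: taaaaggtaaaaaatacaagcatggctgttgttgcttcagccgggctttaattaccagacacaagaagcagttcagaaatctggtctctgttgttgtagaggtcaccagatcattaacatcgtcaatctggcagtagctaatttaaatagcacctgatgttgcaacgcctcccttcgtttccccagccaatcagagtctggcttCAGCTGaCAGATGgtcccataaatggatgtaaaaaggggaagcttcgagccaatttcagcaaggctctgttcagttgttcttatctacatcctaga
The window of Ptbp1 holds 22 CpG dinucleotides and the one shown for Elavl4 holds 5, against a median of 7 over all windows, but the 4 windows of Elavl4 range from 4 to 23.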

How the data were processed

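Per the study's methods, the captured pieces were lysed, RNA was extracted, and 1 ng entered a low-input kit whose libraries were sequenced as paired ends. The authors trimmed adapters (cutadapt 4.1), mapped read 1 to mm10 from Illumina iGenomes (STAR 2.7.9a) and deposited the read counts per gene that STAR gives, with strand ignored (used here) and for each strand (an alternative). The strand columns held near-equal shares, 49.6 and 49.7% of reads on the first strand. Reads that map to several places or overlap several genes are left out of the unstranded count, and removal of duplicates is not given in the sources used here. The authors' table of CPM and fold changes was not used.

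Rows that name no gene (41.0% of SVZ reads and 40.9% of cortex reads) were left out. CPM used the gene-assigned totals, so that 1 read was worth 0.0194 and 0.0453 CPM. Ratios had no pseudocount. Differences were called by size, at least 2-fold, where the mean CPM reached 1. The members and lists were chosen with earlier results of these data known. Named were all members, list genes at least 4-fold apart, Rest and Ptbp3. A further gene of the list of target transcripts is not reported here. Other genes of a family or list named above (Elavl1, Elavl2, Gabbr1, Dlg4, Flna, Ctdsp2 and the miR-124 host genes) and the neighbor pairs were chosen after their values were seen. Positions and lengths came from GENCODE M21 (GRCm38). Alternatives were edgeR 4.0.16 TMM and upper-quartile scaling, DESeq2 1.42.0 size factors, the strand columns, thinning, a pseudocount of 1 CPM and other minimums. Python 3.11.15, scipy 1.17.1, Biopython 1.88 and R 4.3.3 were used. The ratios and intervals were tested on counts simulated with counting error alone. This checks the calculation, not whether the intervals hold for amplified libraries without replicates.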

Additional observations from a re-analysis of the deposited data

Results flagged for a closer look

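Reads outside the main counts appeared for 2 of the 10 genes in the columns counted by strand. For Ptbp1 these columns together held 327 more reads than the unstranded count in the SVZ library and 37 more in the cortex library, or 8.79% and 11.3% of its count. For Srrm4 they held 285 and 107 more, or 3.68% and 3.62%. In GENCODE M21 the exons of Ptbp1 overlap those of Plppr3 (251 nt, counted as Lppr3) and E130317F20Rik (295 nt) on the opposite strand, and these genes gained 268 and 62 reads in the SVZ library and 30 and 11 in the cortex library. Srrm4 overlaps Srrm4os by 68 nt, and that gene gained the same 285 and 107 reads. With near-equal shares of reads on each strand, the counts cannot tell from which gene of a pair these reads came. With them, the log2 ratio was 2.25 for Ptbp1 and 0.17 for Srrm4.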

How the results depend on the processing

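No paired analysis was possible because there was a single library per area, which also leaves no replicate to omit. Under TMM, DESeq2 and upper-quartile scaling each ratio shifted by the same amount, -0.093, -0.093 and -0.099 on the log2 scale. Each of these scalings took 8 of the 10 members outside their counting intervals, all but Ptbp1 and Nova1. Ptbp2 alone changed sign, to -0.07 in each case. Thinning the SVZ library to the cortex total, the strand columns and the pseudocount moved no member outside its counting interval. The numbers of SVZ-high (2) and cortex-high (4) members stayed the same under all scalings, the strand columns, thinning, the pseudocount and the rule that the whole interval pass 2-fold. At a fold threshold of 4 they were 1 (Ptbp1) and 1 (Rbfox1). In the REST and miR-124 list 1 gene in place of 0 was cortex-high under TMM and under upper-quartile scaling. The other list counts stayed within 1.5 times, and list medians moved by less than 0.2 and kept their sign. The 6 pair balances stayed within their intervals with the strand columns and with thinning, the only alternatives applied to them. These could hardly move them. Members other than Ptbp1 and Srrm4 gain no reads in the strand columns, and thinning keeps the expected ratio of 2 genes. Depth limited Ptbp1 most, with 326 reads in the cortex library.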
